A study of Arabidopsis thaliana with 6 samples.

Results

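The 10 genes described here act early in the anther, when its cells receive their fates, and were read by their locus identifiers from each count table, which holds 27628 genes and the transgene. They are SPOROCYTELESS (SPL), TAPETUM DETERMINANT 1 (TPD1), EXCESS MICROSPOROCYTES 1 (EMS1), SOMATIC EMBRYOGENESIS RECEPTOR-LIKE KINASE 1 and 2 (SERK1, SERK2), BARELY ANY MERISTEM 1 and 2 (BAM1, BAM2), RECEPTOR-LIKE PROTEIN KINASE 2 (RPK2) and the MAP kinases MPK3 and MPK6. All 10 were found and all 10 passed the filter on low counts, as did 18642 entries in all. Sequencing covered 3 transgenic and 3 wild type Arabidopsis samples of ecotype Col (Col-0 in the paper), each of RNA from young buds at anther stages 6 to 9, grown with 16 h light and 8 h dark at 23 °C. In the transgenic plants, labelled BnA9::BnMAGL8.1 and called BnA9::BnaC.MAGL8.a in the paper, the BnA9 promoter drives a rapeseed monoacylglycerol lipase gene in the tapetum, the inner cell layer that feeds the developing pollen. The paper describes this promoter as active in the tapetum from the earliest of the sampled stages until after the latest. The wild type plants carry no transgene. The methods speak of transgenic lines, but neither they nor the labels tie a sample to a line or give the number of plants in it, so the p-values reflect only how far these 6 samples vary.
In the young anther, SPL switches on the formation of the sporogenous cells, which will become the pollen mother cells, and it plays the same part in the ovule. The reproductive cells secrete TPD1, a small protein that binds EMS1, a receptor kinase with leucine-rich repeats on the neighbouring cells, and EMS1 signals together with the coreceptors SERK1 or SERK2 to make those cells tapetum. BAM1, BAM2 and RPK2 are receptor kinases of the same kind that shape the inner wall layers, and MPK3 and MPK6 are MAP kinases that act redundantly in anther lobe formation. Most of these genes also act outside the anther, and a whole bud was sampled. In such bulk RNA, fewer cells of a type and less RNA per cell cannot be told apart.
Each library held 13519945 to 14729927 counts. The transgene had 5552, 853 and 9594 counts in transgenic replicates 1, 2 and 3, the order in which values are given for either genotype throughout, and 0 in each wild type library. Markers of the tapetum were abundant, with summed levels of 1437 to 3200 CPM (counts per 1000000 counts of a library, after TMM scaling) over 8 genes in the transgenic and 2378 to 4124 CPM in the wild type libraries. Of 14 meiocyte markers, 5 passed the filter, of which 4 were lower in value in the transgenic buds, as were 52.1% of all genes tested. The genotypes overlapped for all 5. DYSFUNCTIONAL TAPETUM1 (DYT1), a tapetal transcription factor that acts after EMS1, had 0 counts in all 6 libraries, and its target TDF1 had 0 to 4. By real-time PCR, the paper reports a similar DYT1 level in both genotypes. Whether the counts of DYT1 and TDF1 reflect expression or the counting could not be settled from these tables. The first principal component of all genes tested, with 34.3% of the variance, did not separate the genotypes. It placed transgenic replicate 3 and wild type replicates 1 and 2 at 26.2 to 39.2, and transgenic replicates 1 and 2 and wild type replicate 3 at -46.1 to -23.3. Over all genes, 3 passed an adjusted p of 0.05 by edgeR's quasi-likelihood test, and 62 by DESeq2.

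None of the 10 genes passed the test between the genotypes in these buds. Anthers younger than stage 6 were not sampled, so a difference in these genes at earlier stages was not tested. Whether cell fates were already set in the sampled anthers was not tested either. By edgeR, 0 of 10 had an adjusted p under 0.05, against 0.0161% of all genes tested, and 0 of 10 had an unadjusted p under 0.05, against 6.84% of all genes (4.26% lower and 2.57% higher in the transgenic buds). An unadjusted p under 0.01 was reached by 0 of 10 and by 1.44% of all genes. The count of 0 of 10 under 0.05 became 3 of 10 with a clock score as covariate, all lower in the transgenic buds, with unadjusted p of 0.0478 for SERK1, 0.0354 for RPK2 and 0.00733 for MPK3, and 1964 genes in all were then under 0.05. DESeq2 called 0 of 10, against 0.302% of its genes. In value, the transgenic buds were higher for 5 genes and lower for 5. The median log2 fold change was 0.02, where all genes tested had a median of -0.01. The 95% interval of the fold change lay within 2-fold, that is between -1 and 1 on the log2 scale, for 9 of the 10 genes, and MPK3 was the exception. The genotypes did not overlap for 2 of the 10, SERK1, which lay below in the transgenic buds, and MPK6, which lay above. Of all genes tested, 12.2% did not overlap, 6.62% below and 5.57% above.

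**Figure D1:**
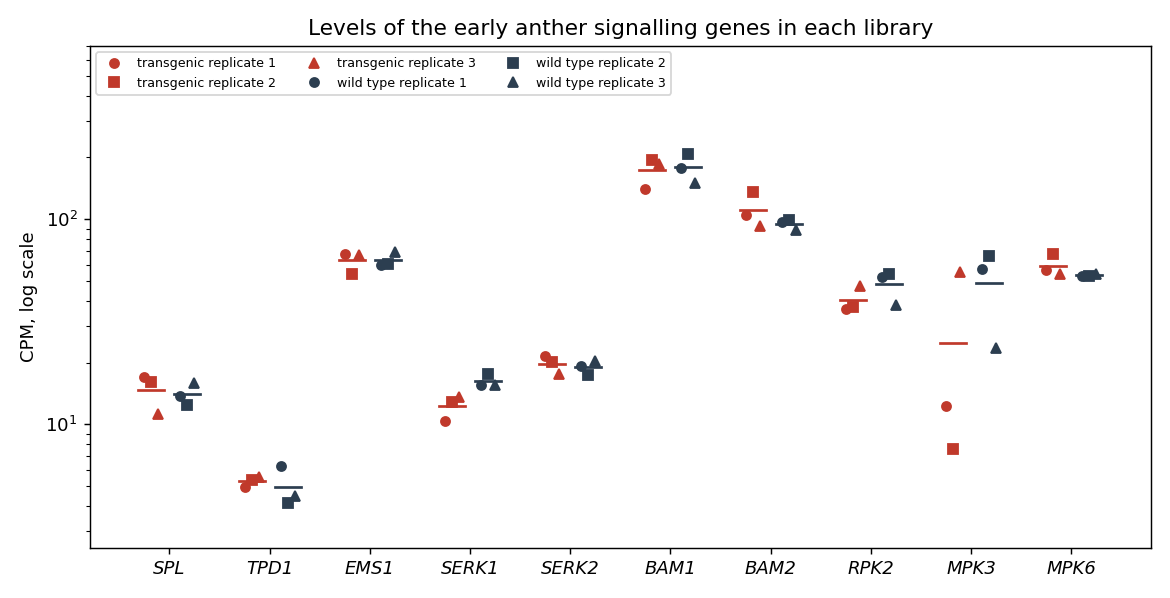
Level of each of the 10 genes in CPM (log axis) in the 3 transgenic (red, left of each pair) and 3 wild type libraries (dark blue, right), with bars at the group means. The 2 sets of points overlap for 8 genes, and MPK3 spreads widest, between 7.58 and 66.2 CPM.

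**Figure D2:**
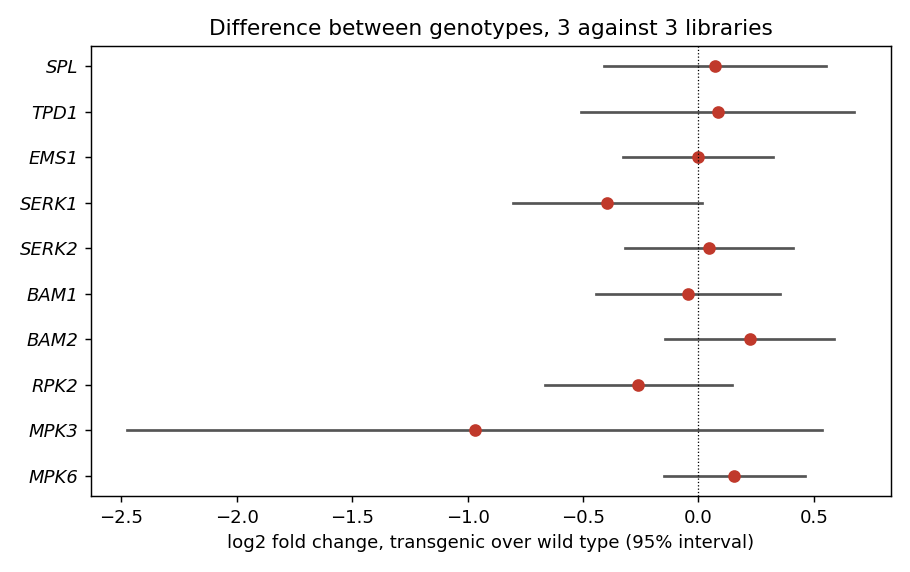
Log2 fold change of each gene, transgenic over wild type, with its 95% interval from edgeR (3 against 3 libraries). Every interval spans 0, and that of MPK3, between -2.47 and 0.53, is the widest.

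The levels of the 10 genes covered a wide range. Per kilobase of exon, which allows a comparison between genes, BAM1 was the highest, at 47.3 ± 7.94 CPM per kb in the transgenic and 48.8 ± 7.88 in the wild type buds (SD, n = 3 each). MPK6 followed at 34.6 ± 4.20 and BAM2 at 30.8 ± 6.16 CPM per kb in the transgenic buds, against 31.1 ± 0.344 and 26.4 ± 1.57 in the wild type. The receptor EMS1 stood at 15.6 ± 1.93 CPM per kb in the transgenic and 15.7 ± 1.39 in the wild type buds, and its ligand TPD1 was the lowest of the 10, at 3.92 ± 0.205 and 3.69 ± 0.849. Ordered by the mean over all libraries, the genes ran BAM1, MPK6, BAM2, MPK3, EMS1, SPL, RPK2, SERK2, SERK1 and TPD1. Of neighbours in this order, EMS1 lay above SPL, RPK2 above SERK2, and SERK2 above SERK1 with no overlap over the 6 libraries, and the other pairs overlapped. SERK2 and SERK1 were nearly touching, since the lowest library of SERK2 had 6.82 and the highest of SERK1 6.81 CPM per kb.

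SPL (AT4G27330, chromosome 4, 13682078 to 13683594 of TAIR10.1, minus strand) stood at 17.1, 16.0 and 11.2 CPM in the transgenic libraries, and at 13.8, 12.4 and 15.8 CPM in the wild type libraries. The highest and the lowest library were both transgenic, and the genotypes overlapped. Its log2 fold change was 0.07 (standard error 0.21, 95% interval -0.41 to 0.55, adjusted p = 0.964 by edgeR). Over the 6 libraries, the gene most like SPL among 10674 others of at least 10 CPM was GR (AT3G54660), a glutathione reductase gene, with a Pearson r of 0.996 on the log2 scale. CYP89A2 (AT1G64900) and CRD1 (AT3G56940) followed with 0.993 and 0.990. With 6 libraries, 48 genes had an r over 0.95, so such values are descriptions of these libraries only.

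TPD1 (AT4G24972, chromosome 4, 12837353 to 12840230), the ligand, had 62, 73 and 77 counts in transgenic replicates 1, 2 and 3 and 97, 55 and 64 in wild type replicates 1, 2 and 3. In CPM this was 4.97, 5.32 and 5.51 in the transgenic and 6.25, 4.13 and 4.47 in the wild type libraries. The transgenic libraries all lay inside the range of the wild type ones. Its difference on the log2 scale was 0.08 (standard error 0.26, 95% interval -0.51 to 0.67, adjusted p = 0.966 by edgeR). TPD1 had the fewest counts of the 10 genes, and the count of 55 has an exact Poisson 95% interval of 41.4 to 71.6. This interval covers counting error only, takes each count as independent and is too narrow if mates of a read pair were counted singly. ELM1, AT1G23570 and ASD1 were the genes most like TPD1 over the 6 libraries, with r of 0.980, 0.979 and 0.970.
EMS1 (AT5G07280, chromosome 5, 2284830 to 2288855), the receptor of TPD1, had 849, 742 and 935 counts in transgenic and 923, 802 and 996 in wild type replicates 1, 2 and 3. These were 68.0, 54.0 and 66.9 CPM in the transgenic and 59.5, 60.2 and 69.5 CPM in the wild type libraries. The means of the genotypes were nearly the same, at 63.0 ± 7.76 CPM in the transgenic and 63.1 ± 5.60 CPM in the wild type buds (SD, n = 3 each). On the log2 scale they differed by -0.0022 (standard error 0.14, 95% interval -0.33 to 0.32, adjusted p = 0.997 by edgeR). The genes most like EMS1 over the libraries were AT3G09180, AT5G47970 and EMB2804, with r of 0.972, 0.971 and 0.970. Within a library, the log2 ratio of TPD1 to EMS1 in CPM, not scaled by length, ran between -3.74 and -3.31 in the transgenic and between -3.92 and -3.22 in the wild type buds, so the ranges overlapped.

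SERK1 (AT1G71830, chromosome 1, 27018158 to 27022117), a coreceptor of EMS1, had the smallest p of the 10 genes. It stood at 10.3, 12.9 and 13.6 CPM in the transgenic libraries, and at 15.5, 17.5 and 15.6 CPM in the wild type libraries. Each transgenic library lay below each wild type library, which is so for 6.62% of all genes tested. The log2 fold change was -0.40 (standard error 0.18, 95% interval -0.81 to 0.01, unadjusted p = 0.0569, adjusted p = 0.722 by edgeR). It stayed between -0.47 and -0.29 when any 1 library was left out.
SERK2 (AT1G34210, chromosome 1, 12458564 to 12462905), the close relative that can replace SERK1 in the anther, stood at 21.6, 20.03 and 17.6 CPM in the transgenic and 19.3, 17.4 and 20.5 CPM in the wild type libraries. These ranges overlapped almost fully, and the fold change on the log2 scale was 0.05 (standard error 0.16, 95% interval -0.32 to 0.41, adjusted p = 0.968 by edgeR). The difference of SERK1 and SERK2 within a library, on the log2 scale of CPM, was -1.05, -0.63 and -0.37 in the transgenic and -0.32, 0.0062 and -0.39 in the wild type replicates. Transgenic replicate 3 fell inside the wild type range, so the balance of the pair overlapped between the genotypes.
The coding sequences of SERK1 and SERK2 are 79.6% identical over 1875 aligned bases, and those of BAM1 and BAM2 81.7% over 2980. How far reads can mix between such copies depends on their shared runs, so the longest run of each pair is shown, from RefSeq's TAIR10.1 genome. That of the SERK pair lies at chr1:27020113-27020153 and chr1:12461014-12461054, and that of the BAM pair at chr5:26284547-26284587 and chr3:18420429-18420469, all on the plus strand.
SERK1 and SERK2: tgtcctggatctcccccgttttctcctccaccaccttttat
BAM1 and BAM2: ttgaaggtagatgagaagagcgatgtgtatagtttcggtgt
Both runs have 41 bases, and no stretch of 50 bases is shared within either pair. The longest run common to MPK3 and MPK6 has 14 bases, with 70.4% identity over 1109 aligned bases. Annotated genes on the opposite strand share 4.32% of the 50-base stretches of SERK1, 0.313% of SERK2, 9.69% of BAM2 and 7.90% of MPK3. The use of strand in counting is not given, so these counts are partly uncertain. Of those partners, AT3G45645 beside MPK3 had 0 counts in all 6 libraries. AT1G34220 beside SERK2 had 364 to 439 counts a library, against 232 to 300 for SERK2. Levels of the partners of SERK1 and BAM2 are not given here.

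BAM1 (AT5G65700, chromosome 5, 26281642 to 26285413) stood at 140, 194 and 186 CPM in the transgenic libraries, and at 178, 208 and 151 CPM in the wild type libraries. The lowest library was transgenic and the highest wild type, and the other 4 were mixed. On the log2 scale the difference was -0.05 (standard error 0.18, 95% interval -0.44 to 0.35, adjusted p = 0.975 by edgeR).
BAM2 (AT3G49670, chromosome 3, 18417568 to 18421263) stood at 105, 136 and 92.4 CPM in the transgenic and 97.4, 99.4 and 88.8 CPM in the wild type libraries. Transgenic replicate 2 was the highest and transgenic replicate 3 lay within the wild type range. The log2 fold change of 0.22 (standard error 0.16, 95% interval -0.14 to 0.59, adjusted p = 0.794 by edgeR) became 0.057 without transgenic replicate 2.
RPK2 (AT3G02130, chromosome 3, 380350 to 384582), a receptor kinase needed for the tapetum and the middle layer, stood at 36.6, 37.2 and 47.0 CPM in the transgenic libraries, and at 52.3, 54.1 and 38.3 CPM in the wild type libraries. Transgenic replicate 3 lay above wild type replicate 3, so the genotypes overlapped. For RPK2 the log2 fold change was -0.26 (standard error 0.18, 95% interval -0.66 to 0.14, adjusted p = 0.780 by edgeR). It was -0.40 (unadjusted p = 0.0344, adjusted p = 0.495 by edgeR) without wild type replicate 3 and -0.17 without wild type replicate 2.

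MPK3 (AT3G45640, chromosome 3, 16756571 to 16758874) was the most variable of the 10 genes. It stood at 12.3, 7.58 and 55.0 CPM in the transgenic libraries, and at 57.3, 66.2 and 23.7 CPM in the wild type libraries. Transgenic replicate 3 was close to the 2 higher wild type libraries, and wild type replicate 3 lay between them and the other transgenic libraries. The highest library was 8.73-fold above the lowest, where this ratio was 1.24 to 1.69 for the other 9 genes. The dispersion of MPK3 between replicates, as edgeR's biological coefficient of variation, was 0.565, above that of 97.2% of the genes tested.
The log2 fold change of MPK3 was -0.97 (standard error 0.66, 95% interval -2.47 to 0.53, adjusted p = 0.780 by edgeR). Without transgenic replicate 3 it was -2.31 (unadjusted p = 7.79e-04, adjusted p = 0.360 by edgeR), while without transgenic replicate 1 it was -0.64 and without transgenic replicate 2 it was -0.53.
MPK3 is known to be induced within minutes of touch, wounding and cold, and the summed level of a list of 17 touch and wound genes such as WRKY33 and TCH4 varied along with it. All 17 were tested, with 2 higher and 15 lower in value (median -0.80), 6 lower at an unadjusted p under 0.05 and 3 without overlap, all below. Of all genes tested, 4.26% were lower at such a p and 6.62% lay below without overlap. The list was chosen with earlier results of these data known, so its counts are not independent evidence. No gene of the list was called by edgeR, and DESeq2 called DDF1, with a log2 fold change of -1.75 by edgeR (standard error 0.39). The list had summed levels of 532, 263 and 974 CPM in transgenic and 1042, 968 and 516 CPM in the wild type libraries. Single genes could differ from the sum, as WRKY18 was highest in wild type replicate 3, at 54.1 CPM. The 3 libraries where MPK3 was highest, transgenic replicate 3 and wild type replicates 1 and 2, were also the 3 highest for this list. They are the same 3 that the first principal component of all genes sets apart, so this division is not particular to MPK3 or to touch genes. With the mean of the list as a covariate, an alternative chosen after seeing the data, the log2 fold change of MPK3 was -0.19 (standard error 0.28) and that of RPK2 was -0.067 (standard error 0.18). RPK2 too was highest in those 3 libraries, whereas SPL and SERK2 were lowest in them. As a sum the list varied with MPK3, and 15 of its 17 genes were lower in the transgenic buds. The fit with its mean as a covariate therefore cannot separate touch from genotype.
Of 12 clock genes, 4 were higher and 8 lower in value (median -0.17), with 0 at an unadjusted p under 0.05. A score of the clock, the mean of 5 evening genes minus that of 4 morning genes on the log2 scale, was 4.14, 3.28 and 6.96 in transgenic and 4.77, 7.31 and -0.63 in wild type replicates 1, 2 and 3. The same 3 libraries had the highest scores. With this score as a covariate, the log2 fold change of MPK3 was -1.41 (standard error 0.42, adjusted p = 0.289 by edgeR) and that of RPK2 was -0.32 (standard error 0.13, adjusted p = 0.436). The parts of touch and of the hour of sampling in the spread of MPK3 were not tested.
CPK32, AT4G24380 and SOBIR1 were the genes most like MPK3 over the 6 libraries, each with an r of 0.995, and 117 genes had an r over 0.95.

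**Figure D3:**
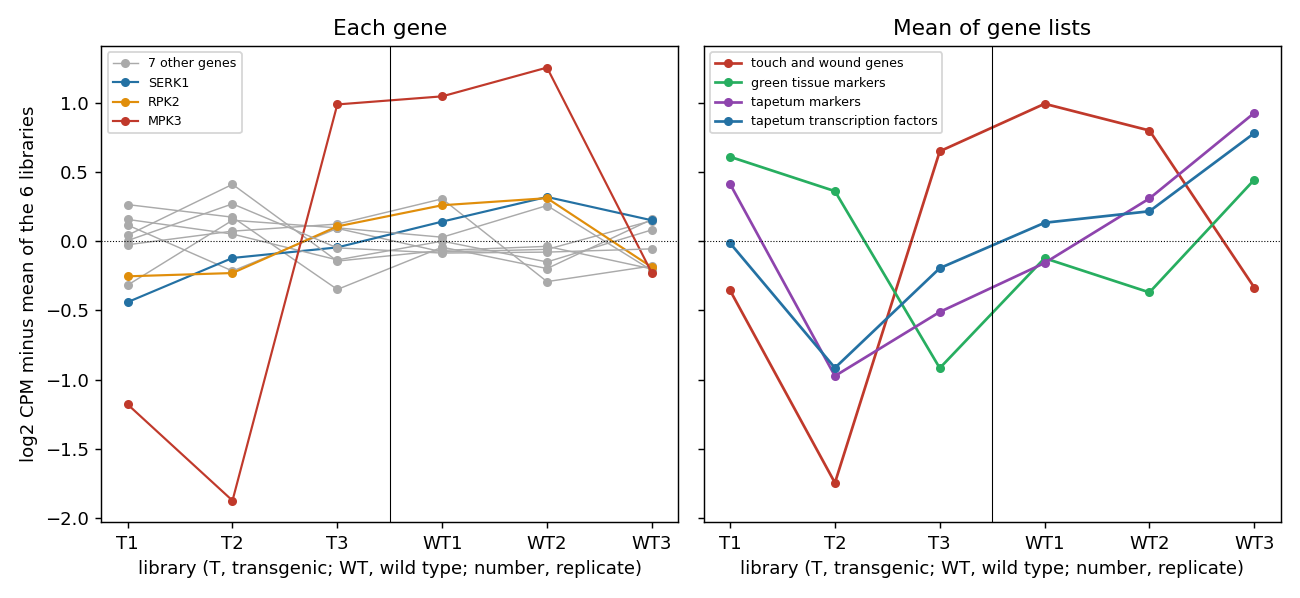
Left, log2 CPM of each of the 10 genes minus its mean over the 6 libraries (T, transgenic, left of the line; WT, wild type, right; lines only join the values of 1 gene). Right, the mean of 4 gene lists on the same scale, where the touch and wound list was high in T3, WT1 and WT2, the libraries in which MPK3 was also high.

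MPK6 (AT2G43790, chromosome 2, 18138246 to 18140988), the partner of MPK3, was among the steadiest genes. It stood at 56.2, 67.6 and 54.2 CPM in the transgenic libraries, and at 52.8, 53.1 and 54.0 CPM in the wild type libraries. All transgenic libraries lay above all wild type libraries, as for 5.57% of all genes tested, but transgenic replicate 3 exceeded wild type replicate 3 only by the margin of 54.2 to 54.0 CPM. The log2 fold change was 0.16 (standard error 0.13, 95% interval -0.15 to 0.46, adjusted p = 0.830 by edgeR) and became 0.055 without transgenic replicate 2. Its biological coefficient of variation of 0.162 was above that of only 6.39% of the genes tested. The log2 ratio of MPK3 to MPK6 in CPM was -2.18, -3.13 and 0.021 in the transgenic and 0.12, 0.32 and -1.18 in the wild type libraries.
Because this pair holds the most and one of the least variable of the 10 genes, the 250 bases before each annotated gene start are shown from RefSeq's TAIR10.1 genome, at chr3:16756321-16756570 for MPK3 and chr2:18137996-18138245 for MPK6, both on the plus strand. Capitals mark the core of the W-box, TTGAC on either strand (GTCAA when read from the other one), to which WRKY transcription factors bind.
MPK3: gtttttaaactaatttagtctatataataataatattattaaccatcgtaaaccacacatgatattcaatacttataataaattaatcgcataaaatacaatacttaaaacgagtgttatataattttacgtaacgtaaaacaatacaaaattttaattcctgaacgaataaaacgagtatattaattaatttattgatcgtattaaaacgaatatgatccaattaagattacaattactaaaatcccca
MPK6: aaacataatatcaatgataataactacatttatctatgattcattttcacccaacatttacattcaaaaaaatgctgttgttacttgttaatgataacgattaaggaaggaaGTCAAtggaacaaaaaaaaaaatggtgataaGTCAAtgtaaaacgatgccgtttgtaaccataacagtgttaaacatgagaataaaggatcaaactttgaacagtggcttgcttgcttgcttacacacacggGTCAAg
The window of MPK6 holds 3 W-box cores, which begin 138, 107 and 6 bases before the gene start, and that of MPK3 holds none. Of 27443 windows of this length before nuclear protein-coding genes, 44.9% hold the core, as do 7 of the 10 genes. Neither window holds the 6 letters CGCGTT of the rapid stress response element, found in 2.59% of windows, or AAATATCT of the evening element, found in 4.79%, and none of the 10 does. These letters describe the windows only, and longer promoters were not searched.

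Genes that work beside these 10 were counted from lists of patterning genes, receptors, signalling genes and tapetal regulators. No gene of these lists had an adjusted p under 0.05 by edgeR, and DESeq2 called none. Of 11 genes of stamen and anther patterning, 9 passed the filter, with 3 higher and 6 lower in value (median log2 fold change -0.02), with 0 at an unadjusted p under 0.05. AGAMOUS, which specifies stamens and switches on SPL, differed by -0.02 on the log2 scale (standard error 0.18). ROXY1, a glutaredoxin gene of petal and anther development, stood at 1.92, 2.40 and 2.72 CPM in the transgenic and 2.90, 4.58 and 3.28 CPM in the wild type libraries, without overlap (log2 fold change -0.60, standard error 0.33, adjusted p = 0.745 by edgeR). It was the only 1 of the 9 without overlap, and 6.62% of all genes tested lay below in this way. YABBY3, REVOLUTA and PHABULOSA, which set the upper and lower sides of lateral organs, had 0.21, -0.14 and -0.07.
Of 17 related receptors, coreceptors and ligands, 16 were tested, with 3 higher and 13 lower (median -0.09). The share with a value below 0 over all genes tested was 52.1%. In 4 of the 16, namely CIK1, CIK2, CIK3 and ERL1, each transgenic library lay below each wild type library, as for 6.62% of all genes tested. Of the 16, 1 (CIK2) had an unadjusted p under 0.05 by edgeR, where 4.26% of all genes did so in that direction. The CIK genes encode coreceptors that work with BAM1, BAM2 and RPK2 in the anther. CIK2 stood at 16.7, 19.2 and 19.4 CPM in the transgenic and 25.1, 23.7 and 22.9 CPM in the wild type libraries (log2 fold change -0.37, standard error 0.15, adjusted p = 0.720 by edgeR). CIK1 had -0.33 (standard error 0.17) and CIK3 -0.22 (standard error 0.14), and CIK4 had -0.0031 (standard error 0.40). BAM3, the third BAM receptor, had 0.27 (standard error 0.16). TDL1, the relative of TPD1, had 0 counts in every library.
Of 10 genes that act after EMS1, all were tested, 6 higher and 4 lower (median 0.03). Of the 10, 1 (BCA2) was higher at an unadjusted p under 0.05 and lay above without overlap. The shares over all genes tested were 2.57% and 5.57%. BCA2, a carbonic anhydrase gene of the family that EMS1 phosphorylates, stood at 131, 155 and 113 CPM in the transgenic and 80.9, 77.7 and 101 CPM in the wild type libraries, without overlap (log2 fold change 0.62, standard error 0.16, unadjusted p = 0.00457, adjusted p = 0.641 by edgeR). Its relatives BCA1 and BCA4 had 0.36 (standard error 0.21) and 0.23 (standard error 0.16). These enzymes are also abundant in green tissue, whose 7 marker genes summed to 17896 to 30890 CPM in the transgenic and 19650 to 24896 CPM in the wild type libraries, and 6 of the 7 were higher in value (median 0.18, 0 at an unadjusted p under 0.05). The part of green tissue in these values was not tested. The transcription factors BES1 and BZR1, which carry the EMS1 signal to the nucleus, had -0.07 (standard error 0.12) and -0.14 (standard error 0.18).
Of 13 genes of the MAP kinase cascade tested, 4 were higher and 9 lower (median -0.11). Of the 13, 1 (MAPKKK5) was lower at an unadjusted p under 0.05 and lay below without overlap. The shares over all genes tested were 4.26% and 6.62%. MAPKKK5, which acts above MPK3 and MPK6 in immunity, stood at 31.5, 30.3 and 34.7 CPM in the transgenic and 37.2, 43.1 and 44.3 CPM in the wild type libraries, without overlap (log2 fold change -0.37, standard error 0.14, unadjusted p = 0.0275, adjusted p = 0.720 by edgeR). YODA, MKK4 and MKK5, the upper tiers of the cascade in development, had -0.11, -0.33 and -0.06. MKK4 stood at 21.5, 16.9 and 44.1 CPM in transgenic and 40.5, 43.9 and 19.8 CPM in the wild type libraries, and was highest in the same 3 libraries as MPK3.

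Among the transcription factors of the tapetum, which act after the 10 genes, 6 of 8 were tested and all 6 were lower in value in the transgenic buds (median -0.69). An unadjusted p under 0.05 was reached by 3 of them, and the same 3 did not overlap between the genotypes. Over all genes tested, the shares in this direction were 4.26% and 6.62%. ABORTED MICROSPORES (AMS), a regulator of pollen wall genes, stood at 58.3, 38.5 and 51.1 CPM in the transgenic and 72.1, 92.6 and 88.0 CPM in the wild type libraries (log2 fold change -0.77, standard error 0.18, adjusted p = 0.565 by edgeR). BHLH091 had -1.74 (standard error 0.44) and BHLH089 -0.60 (standard error 0.19). AMS and BHLH091 were named by the study from these samples, so their direction is not independent evidence. By real-time PCR on buds of the same stages, the paper also reports AMS, MS188, BHLH010, BHLH089 and BHLH091 as lower in the transgenic plants. The 8 tapetum markers were all lower in value as well (median -0.71), with 0 at an unadjusted p under 0.05 and 0 without overlap. Their mean was lowest in transgenic replicate 2, but in transgenic replicate 1 it lay above that of wild type replicates 1 and 2. The study had already described 5 of the markers from these samples (ACOS5, CYP703A2, MS2, PKSA and PKSB), so their direction is not independent evidence either. The paper's real-time PCR had ACOS5, MS2 and PKSB lower, but CYP703A2 and PKSA higher, in the transgenic plants. The 5 meiocyte markers tested had a median of -0.49, with DMC1 at 0.01 (standard error 0.19), the other 4 between -0.71 and -0.29 and 0 at an unadjusted p under 0.05. The genotypes overlapped for all 5, and counts were low for PRD1 (0 to 17 a library) and MSH5 (7 to 26). The 8 markers of carpel and ovule, where SPL also acts, had a median of 0.07, with 5 higher and 3 lower in value. Of these, the ovule identity gene STK had -0.94 (standard error 0.35, unadjusted p = 0.0251, adjusted p = 0.720 by edgeR), and its genotypes overlapped. It was the only 1 of the 8 at an unadjusted p under 0.05, where the share over all genes was 4.26% in this direction. INO and SHP1 were higher, at 0.52 (standard error 0.36) and 0.35 (standard error 0.29). What share these cell types had in the values of the 10 genes was not tested.
Against these, the 10 early genes had a median of 0.02. The difference between the lists was not tested.

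**Figure D4:**
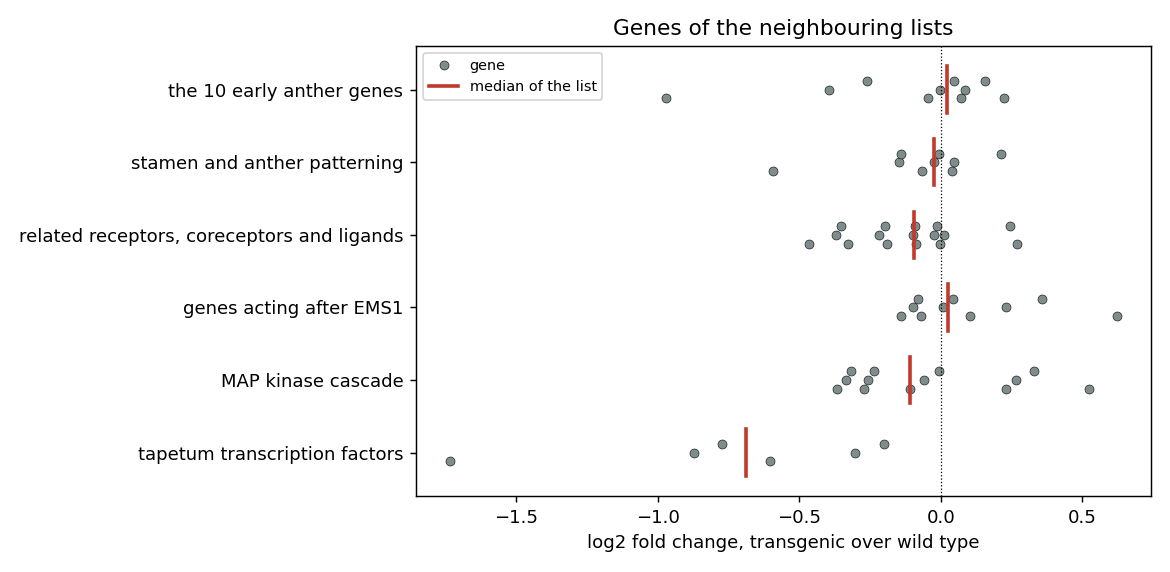
Log2 fold change, transgenic over wild type, of each gene tested in the 10 early anther genes and 5 neighbouring lists (grey points), with the median of each list (red line). The medians of the 10 genes, of anther patterning and of the genes acting after EMS1 lie at 0.02, -0.02 and 0.03, and that of the 6 tapetum transcription factors at -0.69.

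**Figure D5:**
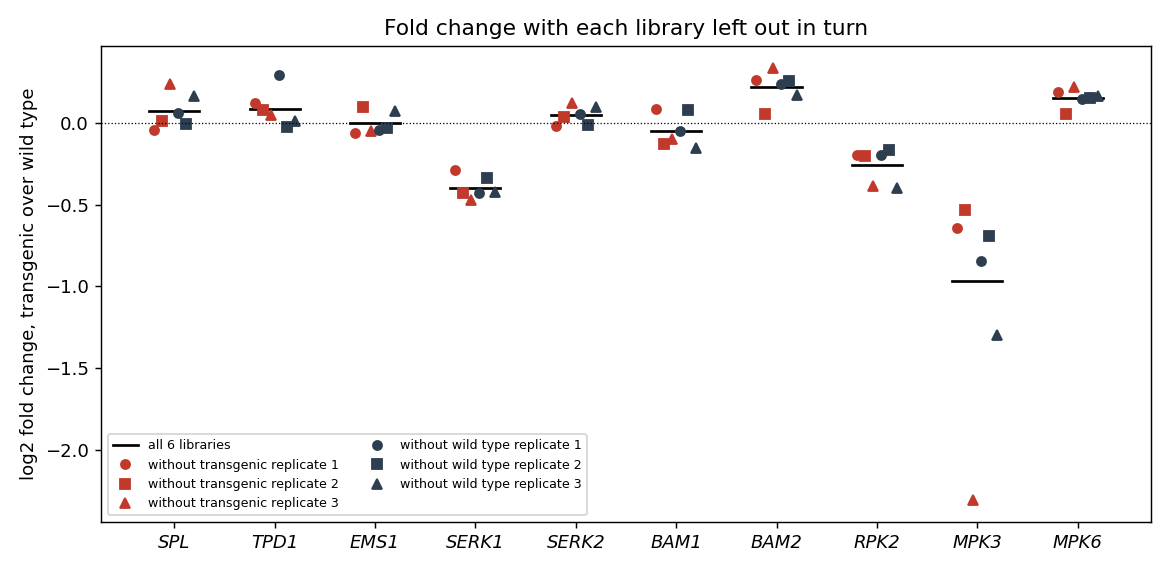
Log2 fold change of each of the 10 genes with all 6 libraries (black bar) and with each library left out in turn (points). SERK1, RPK2 and MPK3 stayed below 0 and BAM2 and MPK6 above 0, and MPK3 moved between -2.31 and -0.53.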

How the data were processed

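RNA of young buds was measured in 3 transgenic and 3 wild type samples, grouped by the genotype in the labels. The deposited counts per gene were made by the authors, whose methods describe mapping by HISAT2 against an Arabidopsis reference that also held the transgene's coding sequence. Counting was by featureCounts, and TAIR10 is the build in the submitters' processing notes. Versions, the use of strand and the handling of mates were not given in the sources used here. Of counts from 1 to 20, 75.5% to 78.0% were even in each library. If the mates of a read pair were counted singly, intervals from counting error are too narrow, which was not tested.
Genes were kept by edgeR's filter (minimum count 10, minimum total 15), scaled by TMM and compared in R 4.3.3 by the quasi-likelihood test of edgeR 4.0.16 with genotype as the only term and Benjamini-Hochberg adjustment over 18642 genes, and 99.9% of each library's counts were in these genes. Standard errors and 95% intervals came from the fold change and the F statistic. DESeq2 1.42.0 and limma 3.58.1 (voom) were alternatives. Correlations used log2 CPM with a prior count of 2. No libraries of 1 genotype agreed within sampling noise (chi-square per degree of freedom 15.4 to 56.0). Scripts were tested on simulated data.
The 10 genes and the 11 other lists of 126 genes were chosen from general knowledge with earlier results of these data known. Named are all 10 genes, up to 4 genes of each other list with the smallest p, and, for SPL, TPD1, EMS1 and MPK3, the 3 genes of at least 10 CPM with the highest r. Those named for their role (AGAMOUS, BES1, YODA, MKK4, MKK5, CIK4, ERL1, WRKY33, TCH4, DMC1, DYT1, TDF1 and TDL1) were chosen after their values were seen. Positions, exon lengths and sequences come from RefSeq's TAIR10.1 annotation. The phosphatase gene MKP1 was listed but not analysed here. Figures were drawn with matplotlib 3.10.9.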

Additional observations from a re-analysis of the deposited data

How the results depend on the processing

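In all 16 alternatives 0 of the 10 genes were called, and SERK1, RPK2, MPK3, BAM2 and MPK6 kept their direction. With each library left out in turn, the log2 fold change ran from -0.045 to 0.24 for SPL, -0.026 to 0.29 for TPD1, -0.062 to 0.10 for EMS1, -0.020 to 0.13 for SERK2 and -0.16 to 0.088 for BAM1. EMS1, at -0.0022, turned positive with no filter beyond a count (0.00055), RLE size factors (0.0054), DESeq2 (0.0067), voom (0.020) and the clock score (0.014) or the touch and wound score (0.040) as a covariate. With the touch and wound score, SPL became -0.13, SERK2 -0.029, BAM2 0.059 and MPK6 0.045. The touch and wound covariate and edgeR's older quasi-likelihood method were chosen after seeing the data. Over the alternatives, whether edgeR, voom or DESeq2, the adjusted p lay between 0.289 and 1 for MPK3, 0.436 and 1 for RPK2, and 0.469 and 1 for SERK1. With the clock covariate, 3 of the 10 genes (SERK1, RPK2 and MPK3) had an unadjusted p under 0.05. So had MPK3 with limma's voom (-1.52, adjusted p = 0.522) and without transgenic replicate 3, RPK2 without wild type replicate 3, and SERK1 with edgeR's older quasi-likelihood method (adjusted p = 0.757). The 3 genes called over all genes became 62 with DESeq2, 0 with voom, 1 with robust empirical Bayes, 5 with the touch and wound covariate and 0 to 5 with a library left out, and the cause was not tested. The 1275 genes at an unadjusted p under 0.05 became 786 when transgenic replicate 2 was left out, 750 when wild type replicate 1 was, and 1964 with the clock covariate.
The replicate numbers gave no sign of pairs, since the deviations of same-numbered libraries correlated at -0.076, -0.098 and -0.35. None of the 6 correlated best with its own number. With so few libraries, this cannot show whether the samples were collected in pairs, and the labels do not say. With the replicate number as a block, 0 genes were called over all genes and 0 of the 10, and MPK3 had -1.47. TPD1 had the lowest depth of the 10 genes, with 55 to 97 counts a library.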
